A study of Mus musculus with 6 samples.

Results

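The genes described here are 10 hexose transporters and glycolytic enzymes of interscapular brown fat, the heat-producing depot between the shoulder blades. They were taken by name from a list drawn up with earlier results of these data known: the sugar transporters Slc2a4 and Slc2a5, the enzymes Hk2, Pfkl, Aldoa, Tpi1, Gapdh, Pgk1 and Eno1, and the lactate dehydrogenase subunit Ldhb. All 10 had reads, of 8129 genes with reads in all. Messenger RNA was read as full-length cDNA on a nanopore sequencer in 6 libraries, each from a separate male wild-type C57BL/6N mouse aged 20 weeks. The 3 cold mice (numbers 4, 11 and 15) were housed singly at 4 °C for 24 h. For the 3 control mice (numbers 2, 9 and 14) the labels give general husbandry at 22 to 24 °C and do not say whether they were housed singly, so housing and temperature cannot be told apart here. The cold exposure is described in protocol text that stands on all 6 records, the controls' included, and the groups rest on the sample titles, with which each sample's treatment label accords.

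Brown fat burns fuel to make heat, and it takes up glucose as well as fatty acids. Glucose enters through transporters of the Slc2a (GLUT) family, is phosphorylated by a hexokinase, split into triose phosphates, and oxidised in steps to pyruvate, which becomes lactate or enters the mitochondria. In fat the same route also supplies glycerol phosphate for triglycerides and carbon for new fatty acids. Most steps are carried by one of several isozymes, each encoded by its own gene.

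Control libraries held 1014812 to 1849351 reads and cold libraries 2922939 to 2982630, so every cold library was the deeper. With each library thinned to 1014812 reads the same number of the 10 genes, 9, passed the test, as did 36.1% of all genes tested in that setting. All 12 brown adipocyte markers had reads, though Dio2, Prdm16 and Ppargc1a were at 0 in every control library. Ucp1 stood at 4146 to 4792 CPM in control and 4080 to 4172 CPM in cold. Of the 9 tested, 2 were called higher (Elovl3 and Kcnk3) and 2 lower (Cox8b and Adipoq). The 4 epididymis markers, sought because the extraction text names another fat depot, were at 0. Skeletal muscle markers were uneven. Of 19 in the list 18 had reads, Myh2 being at 0, and their summed level was 230, 788 and 1272 CPM in control 2, 9 and 14 but 314, 3710 and 18050 CPM in cold 4, 11 and 15. Cold 4 thus lay within the control range and cold 11 and 15 above it, and results are also given below without these libraries where that matters. The summed level of the 6 white adipocyte markers moved with the groups, at 910 to 1077 CPM in control and 303 to 409 CPM in cold libraries. Of the 3 tested, Car3 (mean 361 to 21.9 CPM per kilobase of transcript) and Hp (201 to 83.7) fell and Retn (105 to 220) rose. Lep, Agt and Nnat were too low to be tested. The part of these 6 markers in the results was not tested. Summed markers of red blood cells, macrophages, endothelium, fibroblasts and Schwann cells overlapped between the groups. In these whole-tissue samples fewer cells of a type and less RNA per cell cannot be told apart. CPM here is the normalised read count, reads per 1000000 of the library after scaling by the trimmed mean of M-values (TMM).

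Glycolysis genes moved in both directions in the cold. Of the 10 genes 6 were higher (Slc2a4, Pfkl, Tpi1, Gapdh, Pgk1 and Ldhb), 3 were lower (Slc2a5, Aldoa and Eno1), and Hk2 was not called. Over all 2093 genes tested 33.2% were called, 18.1% higher and 15.1% lower. A call is an adjusted p under 0.05 in edgeR's quasi-likelihood test, with Benjamini-Hochberg adjustment over all 2093 genes. In the 9 called genes the cold and control libraries did not overlap, as was so for 47.8% of all genes tested. The median log2 change of the 10 genes was 0.70 against 0.04 over all genes tested. All 10 passed the filter on low counts, Slc2a5 only through its control libraries, so its direction was fixed by that filter.

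**Figure D1:**
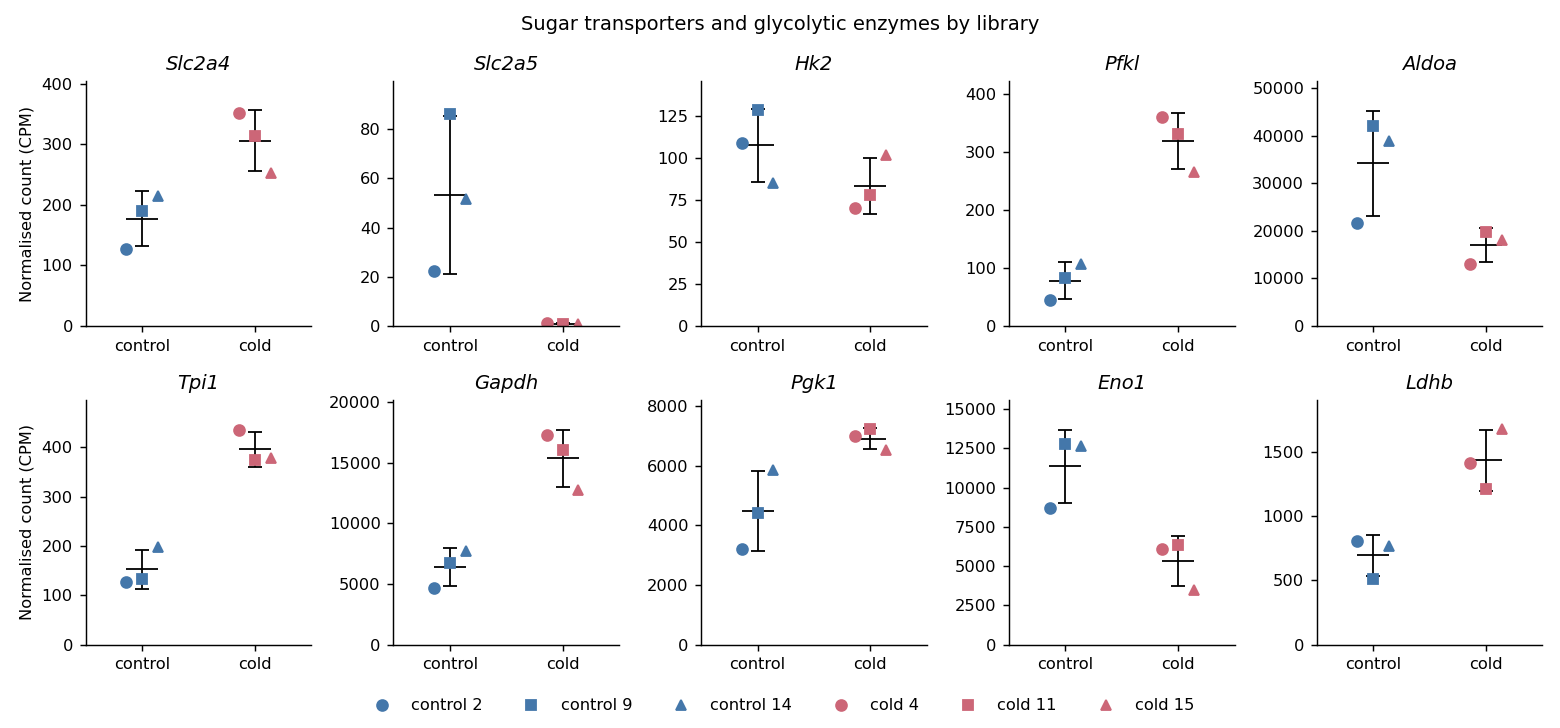
Normalised counts (CPM, linear axis from 0) of the 10 genes in each of 3 control and 3 cold libraries, with the mean as a short line and the SD as whiskers (n = 3 per group). In 9 of the 10 panels the groups do not overlap, and in the Hk2 panel they do.

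The hexose transporters parted. Slc2a4 encodes GLUT4, the insulin-responsive glucose transporter of fat and muscle (chromosome 11, 69942539 to 69948188, GRCm38). It stood at 127, 189 and 215 CPM in control 2, 9 and 14 and at 352, 313 and 252 CPM in cold 4, 11 and 15. Every cold library lay above every control, with the nearest pair being control 14 and cold 15. The rise was 1.73-fold (log2 0.79 ± 0.24 SE, edgeR adjusted p = 0.0274), where changes are cold minus control throughout. The call was lost without control 9 (0.81, adjusted p = 0.06), cold 4 (0.66, adjusted p = 0.113) or cold 11 (0.78, adjusted p = 0.0727).

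Slc2a5 encodes GLUT5, a transporter of fructose (chromosome 4, 150119283 to 150144169). It had 41, 84 and 86 reads in control 2, 9 and 14 and 4, 2 and 3 reads in cold 4, 11 and 15, although the cold libraries were the deeper. As normalised counts these are 22.2, 86.3 and 51.6 CPM against 1.34, 0.662 and 0.988 CPM. The control libraries spread 3.89-fold among themselves, yet the lowest was far above the highest cold library. Because the cold counts are at the level of 3 reads per library, the summed reads give the safer ratio: 211 in control against 9 in cold, a ratio of control to cold, relative to depth, of 47.2 (95% exact interval 24.4 to 105, counting error only). The fitted log2 change was -5.63 ± 0.57 (edgeR adjusted p = 6.0e-05), and it was -4.91 and -7.14 on flow cells 1 and 2 taken alone.

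Other hexose transporters were scarcely seen. Slc2a8 had 17 reads over all libraries and Slc2a9 had 1. Slc2a1, which encodes the basal glucose transporter GLUT1, and Slc2a3 had none, which allows up to 2.96 CPM in the shallowest library (3 reads in control 9) and 1.01 to 1.03 CPM in the cold libraries. Per kilobase of transcript, Slc2a5 made up 12.4, 26.9 and 15.9% of the Slc2a level in control 2, 9 and 14, and 0.306, 0.171 and 0.316% in cold 4, 11 and 15. Slc2a4 thus held 99.3% of it in each cold library. No test was made of these shares, which follow from both genes.

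**Figure D2:**
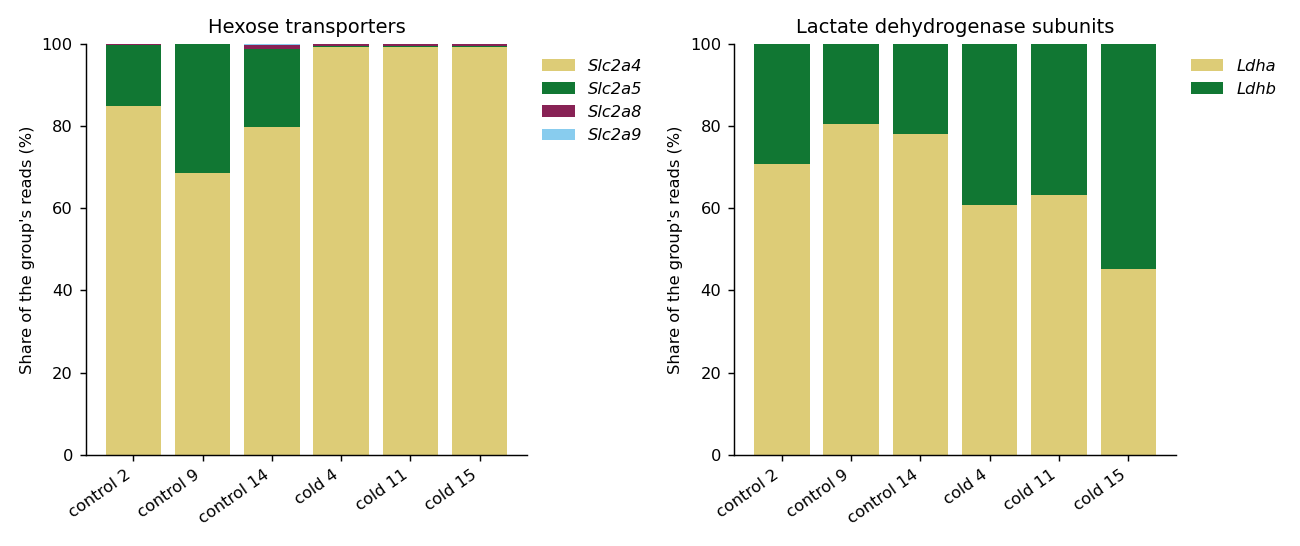
Share of reads (%) held by each hexose transporter gene (left) and by each lactate dehydrogenase subunit gene (right) in each library, as stacked bars. Slc2a5 holds 14.9 to 31.3% of transporter reads in control and 0.21 to 0.39% in cold libraries, and Ldhb holds 19.6 to 29.3% in control and 36.8 to 54.8% in cold.

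Of the enzymes that commit glucose to the pathway, Pfkl was called higher and Hk2 was not called. Hexokinase 2, the product of Hk2 (chromosome 6, 82725025 to 82774454), traps glucose in the cell by phosphorylating it. It stood at 109, 129 and 85.2 CPM in control 2, 9 and 14 and at 70.2, 78.1 and 102 CPM in cold 4, 11 and 15. Cold 15 lay inside the control range and the other cold libraries below it. The change was -0.37 ± 0.24 (edgeR adjusted p = 0.262, 95% interval -0.89 to 0.16), so a rise of more than 0.16 on the log2 scale lay outside the interval. Hk1 had 7 reads in all and Hk3 and Hkdc1 none, so that at least 98.4% of the summed level of these genes per kilobase was Hk2 in every library.

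Pfkl encodes the liver-type phosphofructokinase, the enzyme of the main control point of glycolysis (chromosome 10, 77986947 to 78010083). Its levels were 44.4, 83.2 and 107 CPM in control 2, 9 and 14 and 361, 331 and 266 CPM in cold 4, 11 and 15. Even the lowest cold library was well above the highest control. At 4.10-fold (2.03 ± 0.30, edgeR adjusted p = 0.000588) this was the largest rise among the 10 genes. The muscle-type gene Pfkm was not called, with 0, 1 and 16 reads in control 2, 9 and 14 and 14, 26 and 41 in cold 4, 11 and 15 (1.24 ± 0.84, adjusted p = 0.289). It was called without control 14 (4.42, adjusted p = 0.0133). With 0 and 1 reads in control 2 and 9, Pfkm then passed the filter on low counts through the cold libraries alone, so its direction there was fixed by that filter. Pfkp, the platelet type, had 30 reads in all, and per kilobase Pfkl held 88.1 to 97.4% of the phosphofructokinase level. Gpi1, which encodes the isomerase between hexokinase and phosphofructokinase, was not called (379 ± 113 to 484 ± 64.8 CPM, SD, n = 3, 0.35 ± 0.24, adjusted p = 0.278).

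Aldoa, the aldolase that splits fructose bisphosphate into triose phosphates (chromosome 7, 126795234 to 126809108), was the most abundant of the 10 genes in control, per kilobase as well as per read. It took 2.16, 4.03 and 3.73% of all reads in control 2, 9 and 14, and 1.34, 2.01 and 1.87% in cold 4, 11 and 15. As normalised counts it stood at 21594, 42031 and 38878 CPM against 13103, 19795 and 18148 CPM. The lowest control, control 2, was close to the highest cold library, cold 11, and the groups did not overlap. The level in control was 2.01 times that in cold (-1.01 ± 0.24, edgeR adjusted p = 0.00933). Aldoc had no reads.

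Muscle also makes much aldolase A, and its part in the Aldoa level was not tested. The muscle markers were highest in cold 11 and 15, the cold libraries with the higher Aldoa. Between them, cold 11 had more Aldoa than cold 15 (19795 against 18148 CPM) and a lower muscle marker sum (3710 against 18050 CPM). Without those libraries, an alternative chosen after seeing the data that leaves cold 4 alone and assumes that it varies like the control libraries, the fall of Aldoa was 1.33 on the log2 scale (-1.33, adjusted p = 0.0058). Eno3 and Pgam2, the muscle forms of enolase and phosphoglycerate mutase, were likewise highest in cold 15, where Eno3 had 107 of its 125 reads and Pgam2 had 53 of 63. Both were too low elsewhere to be tested.

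**Figure D3:**
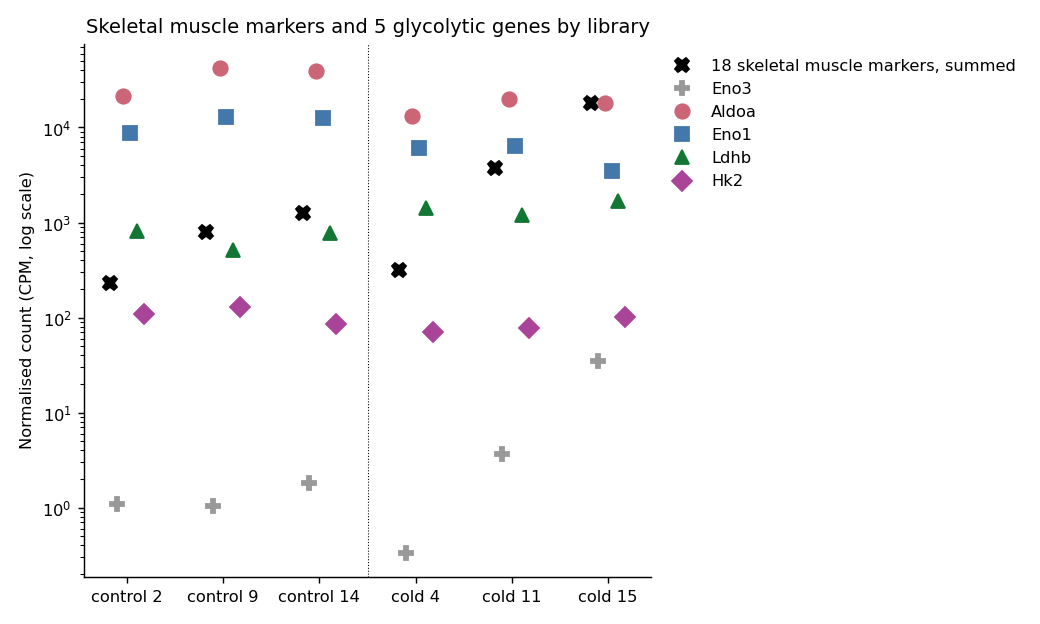
Normalised counts (CPM, log axis) in each library of 18 skeletal muscle markers summed, of the muscle enolase gene Eno3, and of Aldoa, Eno1, Ldhb and Hk2. The muscle markers reach 3710 CPM in cold 11 and 18050 CPM in cold 15 and stay between 230 and 1272 CPM elsewhere, while Aldoa is below every control library in all 3 cold libraries.

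The middle of the pathway rose. Triose phosphate isomerase, encoded by Tpi1 (chromosome 6, 124810586 to 124814296), interconverts the products of aldolase. Its levels were 127, 132 and 198 CPM in control 2, 9 and 14 and 436, 374 and 378 CPM in cold 4, 11 and 15. The cold libraries lay close together and well above the controls (2.60-fold, 1.38 ± 0.22, edgeR adjusted p = 0.000975).

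Gapdh encodes the glyceraldehyde phosphate dehydrogenase that makes NADH, and it is often used as a reference gene (chromosome 6, 125161715 to 125166467). It stood at 4695, 6705 and 7743 CPM in control 2, 9 and 14 and at 17271, 16060 and 12723 CPM in cold 4, 11 and 15. No cold library came near a control (2.41-fold, 1.27 ± 0.19, edgeR adjusted p = 0.00065). Near-identical copies of Gapdh are many. The largest, Gm3839 and Gm7336, held reads equal to 0.801 and 0.665% of those of Gapdh. With reads of all copies added to their parent genes 9 of the 10 genes were called as before, against 33.0% of all genes tested.

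Pgk1, the phosphoglycerate kinase of the first ATP-forming step (chromosome X, 106187100 to 106203699), stood at 3198, 4405 and 5874 CPM in control 2, 9 and 14 and at 6995, 7223 and 6517 CPM in cold 4, 11 and 15. The cold libraries were alike and the controls were not, with control 14 nearest to the cold group. The rise was the smallest called among the 10 genes (1.54-fold, 0.62 ± 0.20, edgeR adjusted p = 0.0321). It was not called without control 9 (0.58, adjusted p = 0.0928), cold 4 (0.60, adjusted p = 0.0896) or cold 11 (0.60, adjusted p = 0.0867).

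Eno1 fell in the midst of these rises. Enolase 1 makes phosphoenolpyruvate, and its gene lies on chromosome 4, 150236721 to 150248879. It stood at 8674, 12774 and 12620 CPM in control 2, 9 and 14 and at 6092, 6347 and 3488 CPM in cold 4, 11 and 15. Cold 15 was the lowest, and every cold library was below every control (control 2.14 times cold, -1.10 ± 0.23, edgeR adjusted p = 0.00437). Without cold 11 and cold 15 together the change was -0.85 (adjusted p = 0.0622). The copy Eno1b, 99.5% identical over 1736 bases, had 2529 reads, equal to 2.6% of those of Eno1. Its counts fell as well (-1.40 ± 0.19, edgeR adjusted p = 0.0004). Whether these are reads of Eno1 assigned to the copy was not tested, so its fall does not stand apart from that of Eno1. Eno2 had no reads.

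Because Gapdh rose while Aldoa and Eno1 fell, the order of these abundant transcripts changed. Per kilobase, Eno1 stood above Gapdh in each control library, at 4285, 6310 and 6235 against 3269, 4668 and 5391 CPM per kb in control 2, 9 and 14. In each cold library it stood below, at 3010, 3135 and 1724 against 12024, 11177 and 8861 CPM per kb in cold 4, 11 and 15. Aldoa, at 14416 to 28060 CPM per kb in control, was above Gapdh in every library but cold 4, where it stood at 8748 CPM per kb. Together the 10 genes took 3.94, 6.43 and 6.39% of all reads in control 2, 9 and 14 and 4.7, 5.24 and 4.48% in cold 4, 11 and 15, ranges that overlap.

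At the end of the pathway, the lactate dehydrogenase subunit gene Ldhb was called higher and Ldha was not called, and the difference between their changes was not tested. Ldhb encodes the heart-type subunit (chromosome 6, 142490249 to 142507957), known for favouring the conversion of lactate to pyruvate. It stood at 807, 513 and 770 CPM in control 2, 9 and 14 and at 1417, 1210 and 1678 CPM in cold 4, 11 and 15. The groups were well apart (2.06-fold, 1.04 ± 0.21, edgeR adjusted p = 0.00338), and without cold 11 and cold 15 together the change was 1.07 (adjusted p = 0.0262). The muscle-type subunit gene Ldha was not called, with 1949, 2105 and 2743 CPM in control 2, 9 and 14 and 2212, 2076 and 1386 CPM in cold 4, 11 and 15 (-0.26 ± 0.20, adjusted p = 0.351, 95% interval -0.71 to 0.19). Per kilobase, Ldhb made up 33.6, 22.9 and 25.5% of both subunits in control 2, 9 and 14 and 43.9, 41.6 and 59.6% in cold 4, 11 and 15. It exceeded Ldha in cold 15 alone, the library with the most muscle marker reads, whose part in this share was not tested. Without cold 11 and cold 15 the change of Ldha was 0.01 (adjusted p = 0.986).

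The libraries of a group were not equally far apart for all genes. Control 2 was the lowest control for 8 of the 10 genes, the exceptions being Hk2 and Ldhb. Within the control group the highest library was 1.47 to 3.89 times the lowest, and within the cold group 1.11 to 2.03 times. In the cold group cold 15 was the lowest for 5 genes and the highest for Hk2 and Ldhb.

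Upstream sequence is shown for 4 of the genes, called higher, lower or neither, to set their changes beside the letters ACGTG. These are 1 form of the core bound by hypoxia-inducible factors, which are known regulators of glycolytic genes. RefSeq promoter entries (GRCm38.p6) were found for 9 of the 10 genes, not for Slc2a4, with 13 start sites. The windows printed are the 250 bases before a start, 5′ to 3′ on the gene's strand, and hold no annotated exon of that strand. The letters ACGTG, on either strand, are in capitals. Another form of the core, GCGTG, was not searched for, and the printed Gapdh window holds it. Pgk1 rose, Hk2 was not called, Aldoa (the start of its main transcript) fell, and Gapdh rose.
Pgk1, chrX:106186850-106187099, plus strand: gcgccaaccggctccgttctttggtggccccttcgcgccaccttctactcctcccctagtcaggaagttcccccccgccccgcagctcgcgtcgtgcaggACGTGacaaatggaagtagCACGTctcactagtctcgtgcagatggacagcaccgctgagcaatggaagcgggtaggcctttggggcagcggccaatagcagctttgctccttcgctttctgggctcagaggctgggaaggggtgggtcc
Hk2, chr6:82774455-82774704, minus strand: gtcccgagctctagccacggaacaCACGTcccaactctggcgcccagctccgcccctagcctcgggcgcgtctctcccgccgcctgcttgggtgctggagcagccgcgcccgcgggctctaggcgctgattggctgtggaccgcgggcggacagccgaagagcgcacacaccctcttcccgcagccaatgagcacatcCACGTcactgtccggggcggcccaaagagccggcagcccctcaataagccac
Aldoa, chr7:126799255-126799504, minus strand: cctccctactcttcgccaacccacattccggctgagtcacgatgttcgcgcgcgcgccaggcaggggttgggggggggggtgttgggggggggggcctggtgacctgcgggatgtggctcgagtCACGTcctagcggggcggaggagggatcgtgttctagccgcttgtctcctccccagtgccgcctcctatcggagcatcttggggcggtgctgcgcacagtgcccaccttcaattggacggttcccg
Gapdh, chr6:125165774-125166023, minus strand: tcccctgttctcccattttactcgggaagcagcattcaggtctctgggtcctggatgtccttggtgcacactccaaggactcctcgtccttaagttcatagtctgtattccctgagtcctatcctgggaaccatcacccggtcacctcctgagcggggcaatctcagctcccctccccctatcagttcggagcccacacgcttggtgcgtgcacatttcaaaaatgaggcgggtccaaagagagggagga
ACGTG had 2 matches before Pgk1, at 150 and 131 bases from the start, and 2 before Hk2, at 226 and 52 bases. It had 1 before the main start of Aldoa, at 126 bases, and 0 before Gapdh. Of all 32817 RefSeq windows of the same length 16.6% held ACGTG, against 4 of the 13 windows of these genes. These 4 belong to 3 genes, and the 2 Aldoa windows overlap and share their match. Of the genes with an ACGTG match, Pgk1 was called higher, Aldoa lower and Hk2 neither. The E-box CACGTG, which holds ACGTG, was in 0 of the 13 windows (6.02% of all), as was TATAAA (12.4% of all). TGACG, the core of the cyclic AMP response element, was in the Hk2 window alone (17.7% of all), where it overlaps the nearer hypoxia core. AAGGTCA, the core for estrogen-related receptors, was in 1 of the windows before Eno1 (4.08% of all), and GGGCGG, the GC box, in 8 of the 13 (32.7% of all). A match is a run of letters and not a site of binding.

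Deposited counts give the transcripts to which reads of these genes were assigned. Transcripts of a gene share sequence, and the handling of reads that align to several is not stated. Its part in the shares below was not tested. The 10 genes had reads on 54 annotated transcripts, of which 29 were tested, with 12 called higher, 12 lower and 5 not called. Of the higher 5 belong to Gapdh, and of the lower 8 to Aldoa. Slc2a5-201 and Aldoa-212 passed the filter on low counts through control libraries alone, and Gapdh-209 through cold libraries alone. Their directions were thus fixed by that filter. Eno1-203 passed through the controls and cold 4, with 2.68 and 2.60 CPM in cold 11 and 15. Its call is thus not independent of that filter. Over all 2787 transcripts tested 32.7% were called, 17.4% higher and 15.3% lower. In 7 genes a single protein-coding transcript held at least 93.5% of the reads in every library: Slc2a5-201, Hk2-201, Pfkl-201, Gapdh-203, Pgk1-201, Eno1-202 and Ldhb-201. For Slc2a4 the coding Slc2a4-201 held 89.4 to 93.7%, and a retained-intron transcript 4.87 to 8.97%.

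Reads of Aldoa were assigned to transcripts with several start sites. The coding transcript Aldoa-201, with its start at 126799254 on chromosome 7, held 72.2 to 74.4% of its reads in control and 71.1 to 73.3% in cold libraries. Aldoa-202 (start at 126799141) held 14.1 to 15% and 15.9 to 18%. All 3 leading transcripts fell: Aldoa-201 from 25308 ± 8460 to 12277 ± 2665 CPM (SD, n = 3, -1.04 ± 0.25, edgeR adjusted p = 0.00862), Aldoa-202 by 0.81 ± 0.22 and Aldoa-203, which starts farthest upstream of them at 126800447, by 0.97 ± 0.23.

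By assigned reads, Tpi1 was the exception to the rule that coding transcripts lead. Tpi1-204, annotated as a retained intron, held 60.2 to 64.5% of its reads in control and 62.2 to 65.2% in cold libraries, and the coding Tpi1-205 nearly all the others. Both rose, Tpi1-204 from 95.5 ± 27.7 to 255 ± 27.5 CPM (1.41 ± 0.24) and Tpi1-205 from 57.1 ± 11.5 to 142 ± 11.1 CPM (1.31 ± 0.22, edgeR adjusted p = 0.000845 for both). Pgk1-203, annotated as a target of nonsense-mediated decay, rose with the coding form, from 157 ± 25.4 to 255 ± 44.7 CPM (0.70 ± 0.22, adjusted p = 0.0272).

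Transcript shares were not called as changed in any of the 6 genes with at least 2 tested transcripts (Aldoa, Eno1, Gapdh, Pgk1, Slc2a4 and Tpi1). Each had an adjusted Simes p of 1 in edgeR's diffSpliceDGE, with unadjusted p from 0.152 to 0.992, so 0 were under 0.05. Over the 539 genes tested for usage 1.67% were called, or 9.

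**Figure D4:**
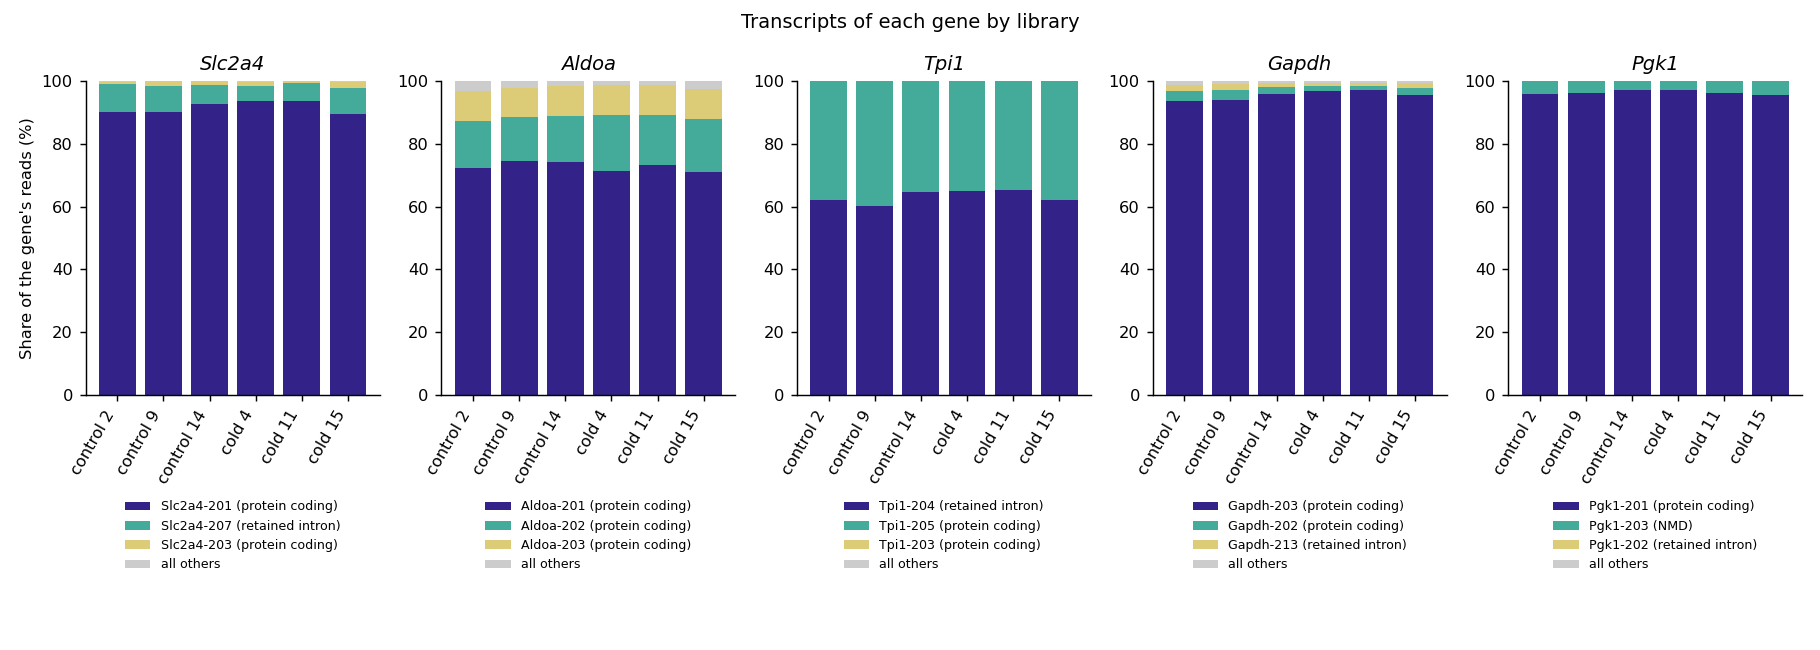
Share (%) of each gene's reads held by its 3 leading transcripts and by all others, as stacked bars, in each library for Slc2a4, Aldoa, Tpi1, Gapdh and Pgk1. The bars of a gene are nearly alike across the 6 libraries, as for Tpi1-204 at 60.2 to 65.2%.

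The other genes of glucose use give the surroundings. In 6 lists covering transport, glycolysis, lactate and pyruvate transport, glycogen, the polyol route and regulators, 107 genes are not among the 10. Of these 66 had reads and 25 were tested, and 4 were higher, 5 lower and 16 not called, a share of 36.0% against 33.2% over all genes tested. Of the 14 tested genes in the glycolysis list 5 were higher and 2 lower, all of them among the 10 genes. Its other tested members, besides Gpi1, Pfkm and Ldha, were Bpgm (0.22 ± 0.34), the mutase gene Pgam1 and the pyruvate kinase gene Pkm. Pgam1 went from 442 ± 105 to 640 ± 62.2 CPM (0.53 ± 0.20, edgeR adjusted p = 0.0654) and Pkm from 2245 ± 735 to 3209 ± 222 CPM (0.52 ± 0.21, adjusted p = 0.0886). Of 17 alternatives, Pgam1 was called under 4 and Pkm under 3. Among these, both were called without control 14 (0.71, edgeR adjusted p = 0.0291, and 0.76, adjusted p = 0.0167). Both were also called with library totals in place of TMM scaling (0.60, adjusted p = 0.043, and 0.59, adjusted p = 0.0489).

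In the list of lactate and pyruvate transport all 4 tested genes were called, 2 higher and 2 lower, against 33.2% called over all genes tested. Bsg, whose product basigin carries lactate transporters to the membrane, rose from 1096 ± 167 to 2407 ± 116 CPM (1.13 ± 0.16, edgeR adjusted p = 0.000443). Slc16a1, the lactate and pyruvate transporter MCT1, rose from 79.1 ± 35.2 to 166 ± 54.5 CPM (1.08 ± 0.35, adjusted p = 0.0328). The latter call was lost without control 2 (0.77), control 14 (1.09), cold 4 (1.15) or cold 11 (0.80). Mpc1 and Mpc2, which form the carrier of pyruvate into mitochondria, fell, from 9076 ± 238 to 4427 ± 632 CPM (-1.04 ± 0.14, adjusted p = 0.0004) and from 3112 ± 323 to 1900 ± 110 CPM (-0.71 ± 0.14, adjusted p = 0.00368). Without cold 11 and cold 15 the Mpc2 call was lost (-0.65, adjusted p = 0.19), as was that of Slc16a1 (0.97, adjusted p = 0.125).

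Of 7 tested glycogen genes 2 were called, both lower, a share of 28.6% against 33.2% over all genes tested: Pygl, a glycogen phosphorylase, from 560 ± 250 to 139 ± 43.1 CPM (-2.0 ± 0.36, edgeR adjusted p = 0.00176) and Gbe1, the branching enzyme, from 250 ± 72.8 to 79.6 ± 18.9 CPM (-1.65 ± 0.28, adjusted p = 0.00124). The glycogen synthase genes Gys1 (0.55 ± 0.34) and Gys2 (0.87 ± 0.45) were not called, though Gys2 was without control 9 (1.42, adjusted p = 0.0343). Of 3 tested fructose and sorbitol genes 1 was higher, 1 lower and 1, Akr1b8, not called (-0.36 ± 0.52, edgeR adjusted p = 0.626). That is a share called of 66.7% against 33.2% over all genes tested. In the polyol route, which turns glucose into sorbitol and then fructose, the aldose reductase gene Akr1b3 rose from 287 ± 44 to 959 ± 183 CPM (1.74 ± 0.20, adjusted p = 0.000159). The sorbitol dehydrogenase gene Sord fell from 16.8 ± 6.19 to 6.20 ± 1.70 CPM (-1.38 ± 0.36, adjusted p = 0.0134), a call lost without cold 11 (-1.17, adjusted p = 0.0527) and without cold 11 and cold 15 together (-1.22, adjusted p = 0.144). Khk, the fructokinase, had 9 reads over all libraries.

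Of 5 tested regulators 1 was called, a share of 20.0% against 33.2% over all genes tested. Fbp2, the fructose bisphosphatase that runs against phosphofructokinase, rose from 4.23 ± 1.16 to 21.7 ± 3.87 CPM (2.29 ± 0.32, edgeR adjusted p = 0.00041), with 10, 3 and 7 reads in control 2, 9 and 14 and 78, 59 and 59 in cold 4, 11 and 15. It passed the filter on low counts through the cold group, with 3 cold libraries and 1 control library over the limit of 4.19 CPM, so its call is not independent of that filter. Txnip, an inhibitor of glucose uptake, was not called (837 ± 121 to 994 ± 285 CPM, 0.25 ± 0.23, adjusted p = 0.431), nor were Akt2 (-0.26 ± 0.37) and Esrra (0.51 ± 0.58). Mlxipl, the carbohydrate-sensing factor ChREBP, was not called either (-1.91 ± 0.74, edgeR adjusted p = 0.0722). It was called under 4 of the 12 alternatives in which it was tested. These include DESeq2 (-2.10, adjusted p = 0.0106) and the fits without control 2 or cold 4 (-2.46 and -2.64). Without cold 4, Mlxipl passed the filter on low counts through control libraries alone, with 1.99 and 1.65 CPM in cold 11 and 15. Its direction in that setting was thus fixed by the filter. Without control 2, control 9 and 14 (27.7 and 7.80 CPM) sufficed for the filter. Cold 4, 11 and 15 were at 5.37, 1.99 and 1.65 CPM, so that call is not independent of the filter.

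**Figure D5:**
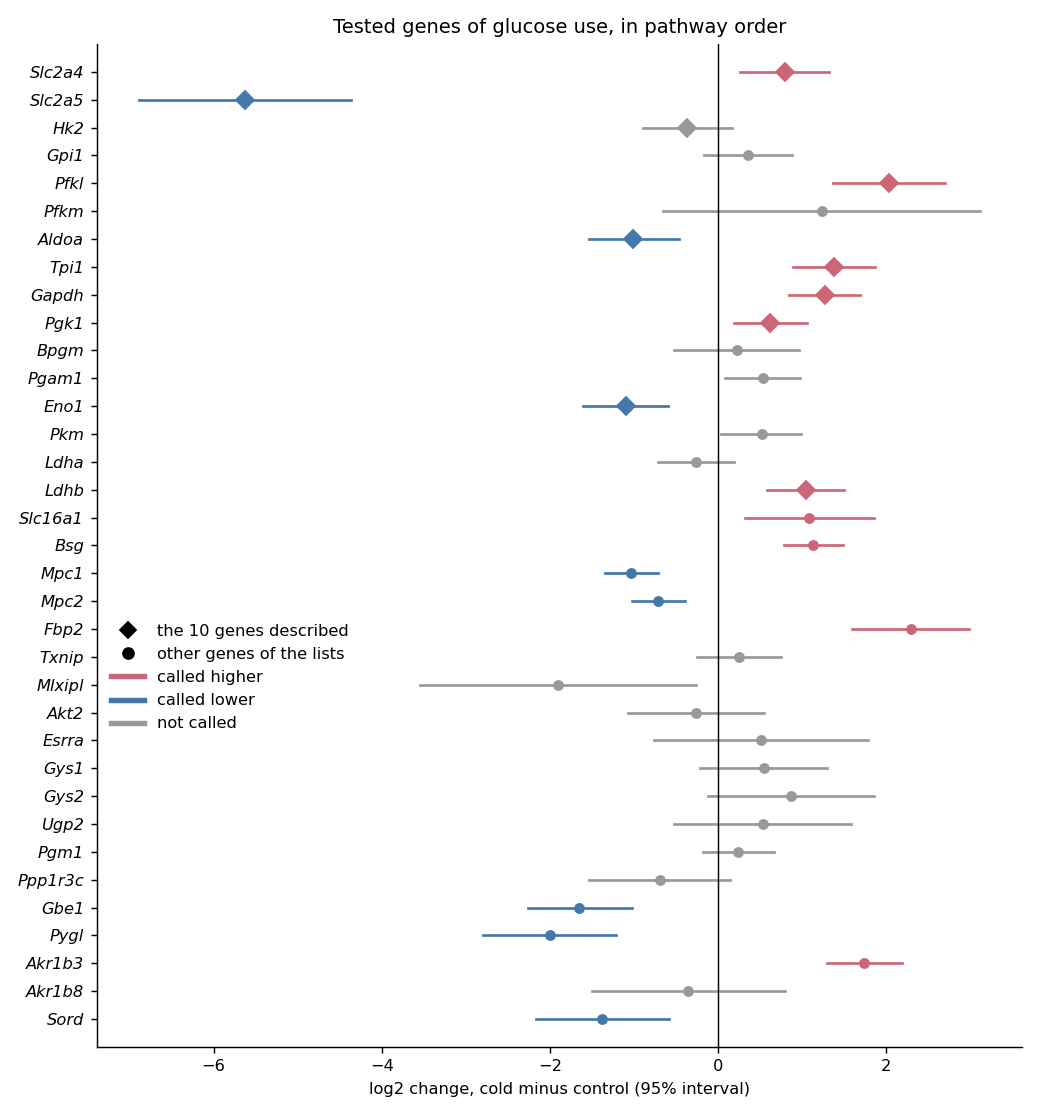
Log2 change, cold minus control, with its 95% interval for the 35 tested genes of glucose use, from transport at the top through glycolysis to regulators, glycogen and polyol genes, with diamonds for the 10 genes described. Calls higher and lower alternate along glycolysis, with Pfkl, Tpi1, Gapdh and Pgk1 to the right of 0 and Aldoa and Eno1 to the left.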

How the data were processed

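The authors deposited raw read counts per Ensembl transcript in 12 files, 1 for each of 2 flow cells per library. The submitters' processing notes name minimap2 and GRCm38, while the handling of reads that align to several transcripts is not stated there. Per the labels' protocols, poly(A) RNA was turned into cDNA with a kit that selects full-length molecules, then amplified by PCR. No molecular identifiers are named, so the exact interval of the Slc2a5 read ratio and the floors cover counting error only. The intervals of log2 changes come from the quasi-likelihood fit and also take in the spread between libraries. The protocol text names eWAT, another fat depot, and the tissue label, interscapular brown fat, was followed.

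Identifiers were joined to GENCODE M21 without version (14671 of 14693 matched, the rest amounting to 0.00433% of reads or less per library). Counts were summed over flow cells and, for genes, over transcripts. Tests used edgeR 4.0.16 in R 4.3.3: filterByExpr at a minimum count of 10, TMM, robust quasi-likelihood fit, Benjamini-Hochberg adjustment over all genes or transcripts tested. Each SE was derived from the log2 change and its F statistic. DESeq2 1.42.0 was an alternative. Levels per kb divide CPM by the read-weighted annotated length. Copies were sought with blastn 2.17.0 (at least 90% identity over 300 bases).

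The 10 genes and the lists were chosen with earlier results of these data known. The rule named all 10 genes, allowed any gene of the glucose lists beside its list's counts, and named transcripts with at least 10% of a gene's reads. Aldoa-203, Pgk1-203, the retained-intron transcript of Slc2a4 and the marker genes named were chosen after their values were seen.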

Additional observations from a re-analysis of the deposited data

How the results depend on the processing

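Under 17 alternatives each, no called change among the 10 genes reversed. The calls of Pfkl, Aldoa, Tpi1, Gapdh and Ldhb were kept under all 17, and Hk2 was called under none. Slc2a5, which passes the filter through its control libraries alone, was also called under all 17, at -5.50 with no count filter. Slc2a4 and Pgk1 each lost their call under 4, the 3 libraries left out singly that are named above and cold 11 and 15 left out together (1.04, adjusted p = 0.0563, and 0.69, adjusted p = 0.135). Eno1 lost it under the last alone, for which fewer samples enter and 321 genes were called in place of 695. With 1 library left out, 7 to 9 of the 10 genes were called, against 24.6 to 29.8% of all genes tested. Genes with changed transcript usage numbered 3 with no count filter and 4 at equal depth in place of 9, and 2 to 6 with 1 library left out, and the cause was not tested. No paired analysis was possible because no mouse number occurs in both groups. Calls of Slc2a5 rest on 9 reads in the cold, so depth limits the size of its fall.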

Other observations

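Pfkfb3, which encodes an enzyme that makes the activator of phosphofructokinase, had too few reads to be tested. It had 0, 1 and 0 reads in control 2, 9 and 14 and 9, 8 and 10 reads in cold 4, 11 and 15. That is at most 1.03 CPM in control and 2.65 to 3.30 CPM in cold, where a level of 3 reads is 1.62 to 2.96 CPM in the control libraries. Pygm, the muscle glycogen phosphorylase, had 9 of its 10 reads in cold 15.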
